A study of Mus musculus with 15 samples.

Results

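Mouse embryonic fibroblasts (MEFs) of generation 3 were compared with those of generation 1 in a line with intact p53. Both groups carried the genotype mTR-/-Wrn-/-p53WT. Thus the generation 1 controls, too, lacked telomerase through the loss of its RNA gene mTR (Terc). They also lacked Wrn, whose loss in humans causes Werner syndrome, and both groups had wild-type p53. They are written G1DM (generation 1) and G3DM (generation 3), with 2 libraries each, 4 of the 15 in the series. The other libraries were 3 of G5DM (generation 5, same genotype) and 8 of TM cells, in which p53 carried N236S on both alleles (2 of G1TM, 3 of G3TM and 3 of G5TM). Cells were taken from embryos of day 13.5 and grown in DMEM with 10% serum at 37 °C, 5% CO2 and 3% O2, and polyA RNA was sequenced. The comparison took the genes with at least 1 FPKM in at least 2 of the 4 libraries, which were 11955 of the 54495 genes listed. FPKM counts fragments for each kilobase of a gene, after scaling every library to one size. The labels do not say whether the libraries of a group came from separate embryos or litters, so p-values measure only the spread between these libraries, which may be technical. No fibroblasts with telomerase were analysed here, and telomere length was not measured in these data.

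Telomerase adds the repeats that chromosome ends lose at each replication. In mice without mTR, telomeres are passed on through the germ line and shorten with each generation, so that generation stands for telomere reserve. Short telomeres are known to be read as DNA damage, which activates p53, and p53 induces the cell cycle inhibitor p21 (Cdkn1a), its own ubiquitin ligase Mdm2 and other targets. The DREAM and MMB complexes, which the series title names, repress and activate the genes of cell division, and p53 acts on them through p21.

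The 4 libraries held 19594297 to 22604943 reads, recovered from the FPKM steps, and 1 read in a gene of 1 kilobase equalled 0.0426 and 0.0430 FPKM in G1DM and 0.0521 and 0.0518 in G3DM. Fibroblast genes were expressed throughout. The summed FPKM of 10 of them (collagens, Pdgfra, Pdgfrb, Thy1, Vim, S100a4, Twist1, Prrx1) was 4587 and 3180 in G1DM and 4802 and 3638 in G3DM. G1DM replicate 1 expressed Y-linked genes (summed 15.0 FPKM) and the other 3 libraries expressed Xist (28.6 FPKM in G1DM replicate 2, 3.04 and 3.36 in G3DM). Over the genes tested, Pearson's r between libraries was 0.983 within G3DM and 0.952 within G1DM. G1DM replicate 2 correlated slightly more with G5DM replicates 2 and 3 (0.958 each) and with G1TM (0.956 and 0.954) than with G1DM replicate 1. G5DM replicate 1 resembled G3DM (0.958 and 0.956) more than it did the other G5DM libraries (0.923 and 0.899). On the first principal component (67.0% of the variance) all 6 G3TM and G5TM libraries were separate from the remaining 9, which include G1DM and G3DM.

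Few genes passed the test between the generations, and most of those that did were higher in generation 3. The test was a limma model of log2(FPKM + 1) with a mean for each of the 6 groups over all 15 libraries, and genes with a Benjamini-Hochberg adjusted p under 0.05 were called. Of 11955 genes, 38 were called (0.318%). Of these, 31 were higher in G3DM (0.259% of genes tested) and 7 were lower (0.0586%), and 28 and 5 respectively were protein coding. The largest rises were those of Cck (a peptide hormone), Upk1b (a membrane protein of bladder lining), Mcpt8 (a serine protease) and Abcg1 (a cholesterol exporter). The falls included Ahr (a receptor for dioxin and related compounds) and the deacetylase gene Sirt1. Both G3DM libraries lay above both G1DM libraries in 4710 genes (39.4%) and below them in 3057 (25.6%). The median log2 difference over all genes was 0.12, and it was -0.08 after rescaling to a common FPKM sum. All log2 differences below are on the log2(FPKM + 1) scale, which understates the change of genes with low FPKM. Of the 31 higher genes, 11 had under 1 FPKM in both G1DM libraries and so entered the test through G3DM alone (Inmt, Ang2, Glp1r, Gpr39, Cdh5, Crb2, Folr1, B3gnt3, Adgra1, mt-Ti and Gm26809). In the same way 2 of the 7 lower genes, Sirt1 and Gm49376, entered through G1DM alone.

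The number of calls depended on which libraries set the spread. It was 1504 without G5DM replicate 1 (358 or 2.99% higher, 1146 or 9.59% lower). It was 770 when only the 4 libraries were fitted (153 or 1.28% higher, 617 or 5.16% lower), and 0 when only the 7 DM libraries were fitted. In that last fit 729 genes were higher and 1227 lower at an unadjusted limma p under 0.05. Leaving out either G1DM library gave 2 or 5 calls and leaving out either G3DM library 4 or 3. The 38 genes kept their direction in the alternatives under which they were tested, which were all 28 for 19 of them and 27 for the other 19, whose mean over the 4 libraries was under 5 FPKM. Most alternatives leave the G3DM minus G1DM estimate of a gene unchanged, so in those the direction was fixed in advance. The estimate could move only with another pseudocount or scaling, a correction for GC content and length, or without 1 of the 4 libraries. Inmt was the only gene called in every fit that left out 1 of the 15 libraries, and it is among those that entered the test through G3DM alone. Cck was called in 14 of these 15 and missed the threshold without G1DM replicate 1 (adjusted p = 0.0512). The leading genes plotted further on are the 12 largest rises and all 4 falls that were called, code for protein and reach a mean of 5 FPKM in either group. Of these 16, 13 were called in none of the 4 fits that left out a G1DM or G3DM library, the exceptions being Cck, Abcg1 and Frzb. Without G1DM replicate 1, which leaves only Xist-expressing libraries in the comparison, Inmt and Ptprv (a receptor tyrosine phosphatase) were called.

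**Figure D1:**
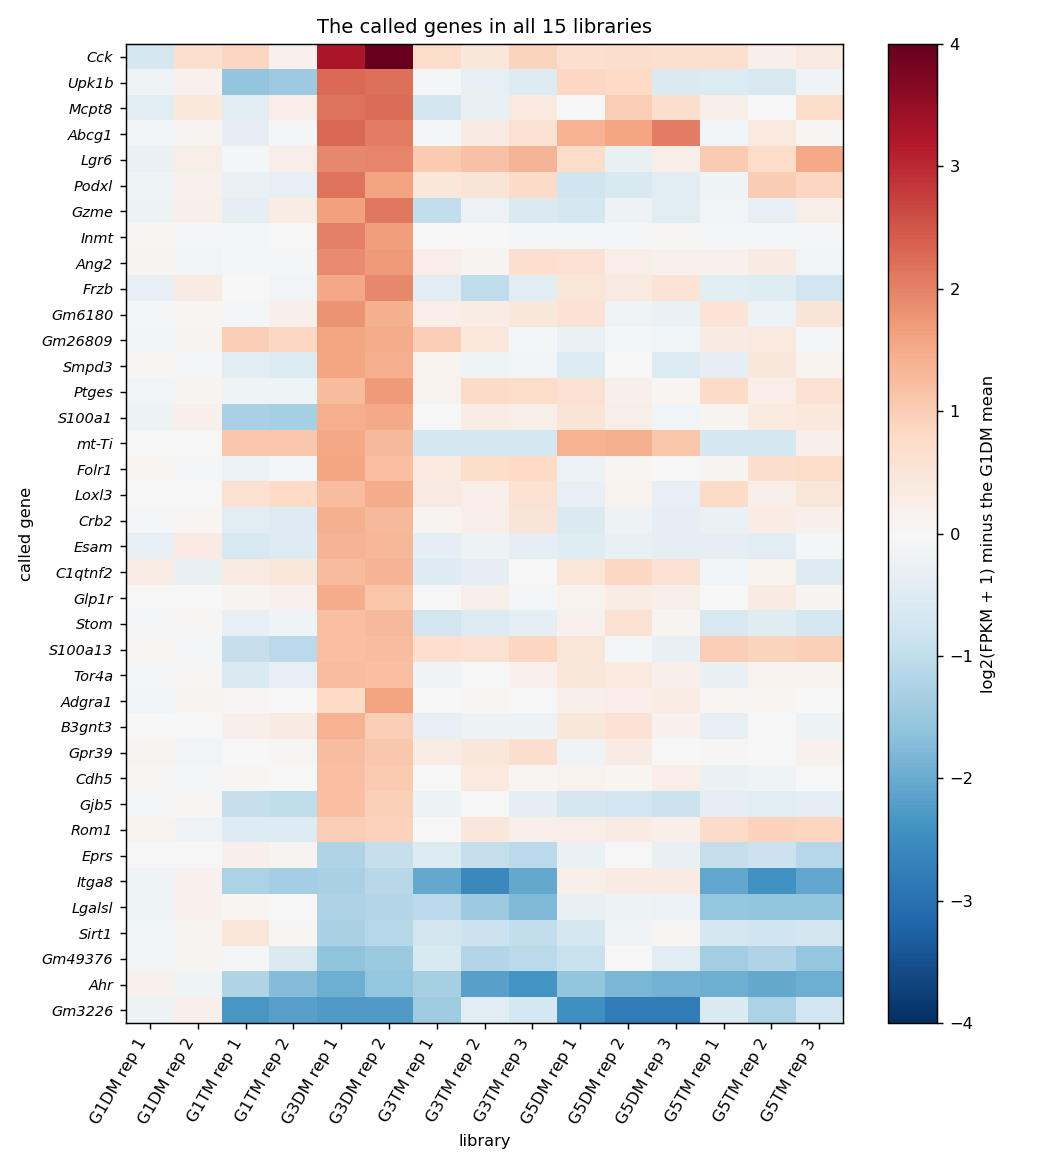
The 38 called genes (rows) in all 15 libraries (columns), as log2(FPKM + 1) minus the G1DM mean; red is higher and blue lower than in G1DM. The 2 G3DM columns are red in the 31 upper rows and blue in the 7 lower rows, and Ahr and Gm3226 are blue in all 3 G5DM libraries as well.

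Cck had the largest difference. This gene, which encodes the gut and brain hormone cholecystokinin (chromosome 9, 121489824 to 121495694), measured 5.42 and 15.3 FPKM in G1DM and 96.8 and 276 in G3DM. Both G3DM libraries stood far above both G1DM libraries, and each group spanned a wide range of its own. The mean was 18.0 times higher in G3DM, a log2 difference of 4.01 ± 0.455 (SE, limma adjusted p = 0.0039). In the remaining groups Cck lay between 10.6 and 18.2 FPKM in TM cells of all generations and between 15.0 and 15.7 in G5DM, so none of the other libraries reached the G3DM level.

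The bases before the start of 4 called genes are shown here because their listed start equals that of RefSeq (GRCm38.p6), so that the letters upstream lie outside the gene. Promoters of 23 of the 38 called genes were in the RefSeq table. Cck is the largest rise, Glp1r and Gzme each rose with a neighbour, and Eprs is a protein-coding fall. Each run gives the 150 bases upstream of the start on the gene's strand, 5′ to 3′, with matches to the motifs searched in capitals.
Cck, chr9:121495695-121495844, minus strand: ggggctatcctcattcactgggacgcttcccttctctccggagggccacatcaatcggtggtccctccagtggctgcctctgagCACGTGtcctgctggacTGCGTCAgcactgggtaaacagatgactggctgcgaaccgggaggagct
Glp1r, chr17:30901717-30901866, plus strand: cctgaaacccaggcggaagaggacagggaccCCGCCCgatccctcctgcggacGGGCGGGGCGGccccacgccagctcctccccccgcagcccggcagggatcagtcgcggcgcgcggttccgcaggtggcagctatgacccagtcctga
Gzme, chr14:56120626-56120775, minus strand: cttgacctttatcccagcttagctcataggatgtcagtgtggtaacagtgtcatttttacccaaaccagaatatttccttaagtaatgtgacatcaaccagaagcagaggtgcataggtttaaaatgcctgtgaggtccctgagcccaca
Eprs, chr1:185362894-185363043, plus strand: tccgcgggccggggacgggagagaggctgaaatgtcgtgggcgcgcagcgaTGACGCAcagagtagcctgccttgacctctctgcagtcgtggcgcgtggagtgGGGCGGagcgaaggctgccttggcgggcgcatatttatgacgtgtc
Letters were searched on both strands, and the share of 32851 promoters of this length that hold each motif is given with it. The motifs were the GC box CCGCCC (28.6%), CCAAT (24.5%), the TATA box TATAAA (7.57%), the cyclic AMP response element TGACGTCA (1.36%), the AP-1 site TGACTCA (2.84%), the related TGCGTCA (1.32%), the E-box CACGTG (4.30%) and the CHR letters TTTGAA (9.07%). Cck held the E-box 66 bases and TGCGTCA 49 bases before its start. Eprs held TGCGTCA on the opposite strand, 99 bases before its start, and a GC box at 46. Glp1r held GC boxes at 119, 97 and 92 bases, of which the last pair overlap, and Gzme held none of the 8. A match describes letters only.

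The called rises also included receptors and Wnt modulators. Lgr6, a receptor for R-spondins that strengthens Wnt signalling (chromosome 1, 134983301 to 135105276), measured 0.790 and 1.59 FPKM in G1DM and 7.13 and 7.31 in G3DM. Frzb, a secreted Wnt antagonist of cartilage and mesenchyme (chromosome 2, 80411970 to 80447625), measured 1.78 and 3.43 FPKM and then 9.21 and 12.2. Neither gene's groups overlapped, and both a Wnt-enhancing receptor and a Wnt antagonist were thus higher in generation 3. Lgr6 differed by log2 1.93 ± 0.320 (adjusted p = 0.028) and Frzb by 1.73 ± 0.259 (adjusted p = 0.023). Glp1r, the receptor of the incretin GLP-1, went from 0.0864 and 0.0872 FPKM to 2.01 and 1.36, and Gpr39, a zinc-sensing receptor, from 0.608 and 0.357 to 2.44 and 2.15. Both passed the test (adjusted p = 0.023 and 0.034), but their levels stayed near the limit of 1 FPKM and they entered the test through G3DM alone.

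Among the called genes were 3 that handle lipids. Abcg1, which exports cholesterol from cells (chromosome 17, 31057698 to 31115777), measured 1.22 and 1.59 FPKM in G1DM and 10.6 and 8.95 in G3DM. Its groups were far apart, with a mean 6.99 times higher in G3DM and a log2 difference of 2.17 ± 0.269 (adjusted p = 0.0070). Smpd3, a neutral sphingomyelinase that makes ceramide (chromosome 8, 106252548 to 106337988), measured 1.39 and 1.12 FPKM and then 5.78 and 5.14 (log2 1.52, adjusted p = 0.033). Ptges, the terminal enzyme of prostaglandin E2 synthesis (chromosome 2, 30889471 to 30929863), measured 10.1 and 12.0 FPKM and then 28.0 and 38.5 (log2 1.49, adjusted p = 0.037). All 3 genes had no overlap between the generations. Abcg1 lies 121187 bases from Glp1r, the incretin receptor gene that was also called, with 2 listed genes between them.

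Abcg1 is known as a target of the liver X receptors. A list of 10 genes tied to these receptors was written after the called genes had been seen and held 9 tested genes. Of these, Abcg1 alone was called and 8 did not pass, beside 0.259% of all genes called higher. With Abcg1 included, 4 lay higher and 0 lower without overlap, beside 39.4% and 25.6% of all genes. Abca1, the other cholesterol exporter of the pair, measured 8.59 and 3.76 FPKM in G1DM and 3.79 and 2.81 in G3DM, with overlapping groups. Apoe measured 19.6 and 21.8 FPKM and then 31.7 and 31.8 (adjusted p = 0.678), and Srebf1 25.6 and 17.8 and then 35.7 and 28.9 (adjusted p = 0.200). Among 25 tested genes of cholesterol synthesis and uptake, none was called, with 6 higher and 4 lower without overlap, beside 39.4% and 25.6% of all genes, and a median of 0.05 beside 0.12.

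**Figure D2:**
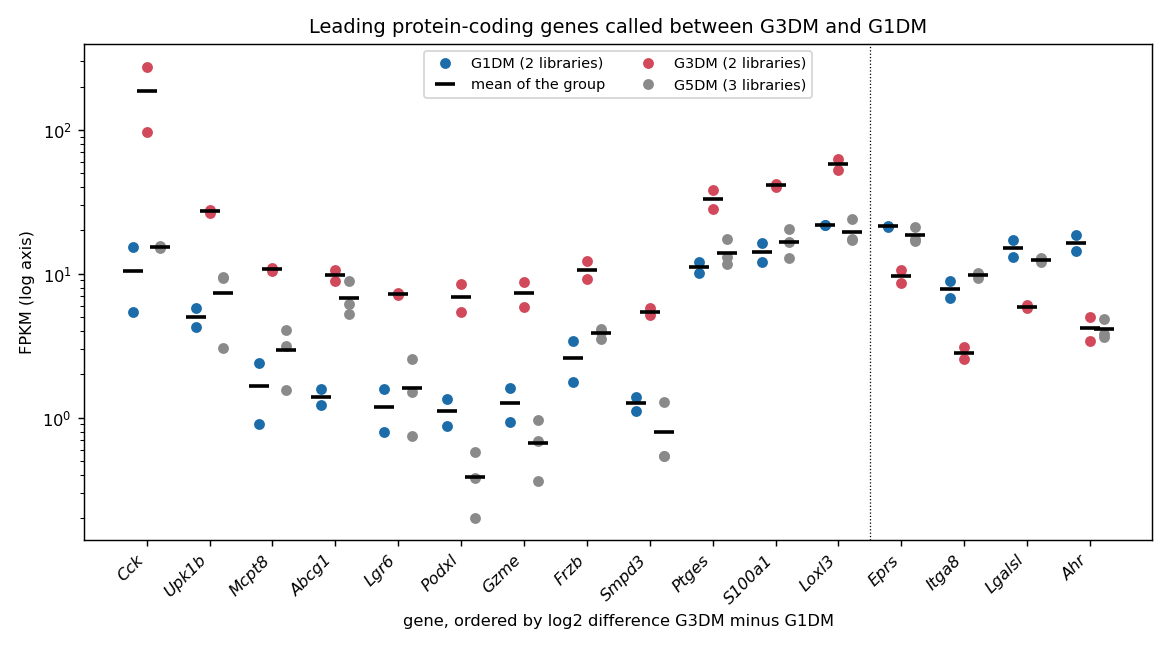
FPKM (log axis) of the 12 largest rises and the 4 falls among called genes that code for protein and reach a mean of 5 FPKM, in each G1DM, G3DM and G5DM library (points), with group means as bars; the dotted line parts higher from lower genes. The G1DM and G3DM points do not overlap for any of the 16, as the choice of genes requires, and the G5DM mean lies nearer to G3DM than to G1DM in Abcg1 and Ahr.

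A pair of serine protease genes rose side by side on chromosome 14. Mcpt8, a protease known from basophils (56082166 to 56085273), measured 0.897 and 2.41 FPKM in G1DM and 10.4 and 11.0 in G3DM. Gzme, a granzyme known from killer lymphocytes (56117626 to 56120625), measured 0.931 and 1.60 FPKM and then 5.92 and 8.76. Both G3DM libraries exceeded both G1DM libraries for each gene, by log2 2.20 ± 0.418 for Mcpt8 (adjusted p = 0.046) and 1.88 ± 0.308 for Gzme (adjusted p = 0.028). The genes lie 32352 bases apart with 1 listed gene between them. Of 10 genes of this locus, Gzmb, Gzmf, Gzmg and Ctsg were listed at 0 in all 4 libraries, and Gzmd measured 0.133 and 0.401 FPKM and then 0.811 and 1.18. The granzymes of this cluster are close copies, so how reads were split between them is uncertain. Markers of leukocytes were low, with 15 of 23 under 1 FPKM in all 4 libraries, among them Ptprc, the pan-leukocyte gene, and their summed FPKM was 72.5 and 89.0 in G1DM and 107 and 117 in G3DM.

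Calcium-binding and matrix genes were also among the called rises. S100a1, a calcium sensor (chromosome 3, 90511034 to 90514392), measured 12.1 and 16.4 FPKM in G1DM and 40.0 and 42.2 in G3DM. S100a13, which starts 42 bases away on the opposite strand, measured 17.1 and 15.0 FPKM and then 38.5 and 38.6. The paired genes had close means within each generation and no overlap between generations, with log2 differences of 1.48 (adjusted p = 0.025) and 1.22 (adjusted p = 0.045). Loxl3, a lysyl oxidase that cross-links collagen (chromosome 6, 83034173 to 83052562), measured 21.9 FPKM in both G1DM libraries and 52.4 and 62.7 in G3DM (log2 1.35, adjusted p = 0.032). Loxl3 overlaps Htra2 on the other strand, which measured 7.25 and 10.9 FPKM and then 13.8 and 12.8, and the sources used here do not say whether counting used strand. Of 48 tested genes of fibrillar collagens and matrix, none was called, and the median was -0.03. Without overlap 7 lay higher and 8 lower, beside 39.4% and 25.6% of all genes. The member of smallest p, Vcan, measured 35.0 and 29.6 FPKM and then 8.34 and 10.4 (log2 -1.69, adjusted p = 0.076). Col1a1, the main fibroblast collagen chain, overlapped between the groups (log2 -0.11 with a 95% interval of -0.87 to 0.65).

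Other called genes encode membrane proteins known from epithelium, mesothelium or endothelium. Upk1b, a uroplakin of bladder lining and mesothelium (chromosome 16, 38773184 to 38800328), measured 4.29 and 5.74 FPKM in G1DM and 28.0 and 26.4 in G3DM. Podxl, a sialomucin of podocytes, vessels and mesothelium (chromosome 6, 31519488 to 31563981), measured 0.878 and 1.35 FPKM and then 8.48 and 5.42. Neither gene's groups overlapped, and the log2 differences were 2.24 ± 0.373 (adjusted p = 0.028) and 1.89 ± 0.330 (adjusted p = 0.033). The endothelial adhesion genes Cdh5 (VE-cadherin, 0.375 and 0.286 FPKM, then 2.03 and 1.72) and Esam (0.402 and 1.23, then 3.49 and 3.47) were also called, both with an adjusted p of 0.028, Cdh5 having entered the test through G3DM alone. Further called genes of this kind were the polarity gene Crb2, the folate receptor Folr1 and the connexin Gjb5. Gjb5 measured 5.35 and 5.77 FPKM in G1DM and 14.0 and 11.8 in G3DM.

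Markers of other cell types were measured beside these genes. Cdh5 and Esam were the only called members among 34 gene lists with 698 tested members, a share of 0.287% beside 0.318% of all genes. Of the 15 endothelial markers, 4 were tested, Tie1 and Cldn5 were at 0 in all 4 libraries, 8 were under 1 FPKM in all 4, Pecam1 among them, and the summed FPKM was 8.11 and 7.38 in G1DM and 13.2 and 11.7 in G3DM. Of the 4 endothelial markers tested, 3 lay higher and 1 lower without overlap, beside 39.4% and 25.6% of all genes. Of 17 epithelial and keratinocyte markers, 7 were tested and none was called. Their median log2 was 1.13 beside 0.12 over all genes, and 0.64 beside 0.04 once the trends on GC and on length were removed. Of these 7, 4 lay higher and 0 lower without overlap, beside 39.4% and 25.6% of all genes. Krt8, a keratin of simple epithelia, measured 1.13 and 4.17 FPKM and then 16.8 and 12.6 (log2 2.23, adjusted p = 0.076). Epcam, Cdh1 and 7 others of that list stayed under 1 FPKM in all 4 libraries. A list of 21 genes known from mesothelium was written after the called genes had been seen and includes Upk1b and Podxl. Its summed FPKM was 61.9 and 94.7 in G1DM, 248 and 190 in G3DM and 43.1 to 54.4 in G5DM. In TM cells it was 46.1 and 67.4 in G1TM, 108, 163 and 149 in G3TM, and 110, 94.3 and 139 in G5TM. The mesothelium list shares members with the epithelial list, among them Krt7, Krt18, Krt19 and Cdh1, so these lists are not separate results. Between G1DM and G3DM, 14 of 17 tested mesothelium genes were higher and 1 (Tbx18) lower without overlap, beside 39.4% and 25.6% of all genes. Upk3b, for example, measured 7.22 and 5.20 FPKM and then 36.8 and 34.4, and did not pass (log2 2.35, adjusted p = 0.082). In these bulk samples a larger share of cells of a type cannot be told apart from more RNA per cell, and the part of such cells in the called genes was not tested.

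Genes of low abundance gave some of the smallest p-values. Inmt, which methylates tryptamine and related amines (chromosome 6, 55170626 to 55175043), measured 0.133 FPKM and 0 in G1DM and 3.29 and 2.39 in G3DM. No other library of the series passed 0.133 FPKM, and the difference was log2 1.84 ± 0.176 (adjusted p = 0.00099). Ang2, an angiogenin paralog of the ribonuclease A family (not the angiopoietin), measured 0.238 and 0.0480 FPKM and then 3.20 and 2.72 (adjusted p = 0.0081). It has close paralogs, so its reads are uncertain, and both genes entered the test through G3DM alone. The mitochondrial tRNA gene mt-Ti was called higher, but it overlaps mt-Nd1 by coordinates. It is only 69 bases long and measured 0.618 and 0.623 FPKM and then 3.78 and 3.00, which at that length are very few reads. Gm6180 and Gm26809 are a processed pseudogene and a long noncoding RNA without a named function. The other called rises were Stom, Tor4a, C1qtnf2, B3gnt3, Adgra1 and Rom1, with log2 differences of 0.95 to 1.31.

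The 7 lower genes had log2 differences of -2.27 to -1.08. Ahr, the aryl hydrocarbon receptor that senses dioxin-like compounds (chromosome 12, 35497974 to 35535038), measured 18.5 and 14.3 FPKM in G1DM and 3.43 and 4.97 in G3DM. The 2 G1DM libraries held more Ahr than all other libraries, since the G5DM values were 4.84, 3.84 and 3.63 FPKM. The fall was log2 -1.75 ± 0.307 (adjusted p = 0.033), a mean 3.91 times higher in G1DM. Of the 5 tested genes of this pathway, in a list written after the fall was seen, Ahr alone was called, beside 0.0586% of all genes lower. With Ahr included, 3 lay lower and 0 higher without overlap, beside 25.6% and 39.4% of all genes. The Ahr target Cyp1b1 measured 50.4 and 33.3 FPKM and then 26.1 and 25.9 (adjusted p = 0.347), and Tiparp 5.99 and 7.47 and then 2.44 and 3.68 (adjusted p = 0.082). The other 2 tested genes of the list, Nqo1 and Arnt, overlapped between the groups (log2 0.08 and -0.11).

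Itga8, an integrin chain of mesenchyme (chromosome 2, 12106632 to 12301922), measured 6.75 and 8.93 FPKM in G1DM and 2.55 and 3.08 in G3DM. Lgalsl, a galectin-related protein (chromosome 11, 20823576 to 20831056), measured 13.2 and 17.2 FPKM and then 5.78 and 6.05. Eprs, the tRNA synthetase for glutamate and proline (chromosome 1, 185363044 to 185428360), measured 21.6 and 21.1 FPKM and then 8.61 and 10.7. All 3 were lower in both G3DM libraries, by log2 -1.21, -1.22 and -1.08, and Eprs passed narrowly (adjusted p = 0.0498). Sirt1, an NAD-dependent deacetylase (chromosome 10, 63319005 to 63381704), measured 2.66 and 3.20 FPKM and then 0.587 and 0.777 (log2 -1.22 ± 0.229, adjusted p = 0.044), and entered the test through G1DM alone. The remaining falls, Gm3226 and Gm49376, are pseudogenes, whose reads are uncertain because a parent gene can share them. Gm3226 fell from 10.5 and 14.3 FPKM to 1.75 and 1.74.

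Uncalled genes with the smallest p among the falls were Ckap5, Pbrm1, Mbnl1, Qser1, Ptbp3, Ptx3, Gorab and 1190002N15Rik, with adjusted p of 0.0514 to 0.0637. Ckap5, which builds spindle microtubules, measured 9.58 and 14.1 FPKM in G1DM and 2.55 and 1.78 in G3DM, and 6.58, 16.2 and 21.4 in G5DM. Pbrm1, a chromatin remodelling subunit, measured 13.4 and 16.6 FPKM, then 2.84 and 3.08, and 5.94, 16.2 and 20.5 in G5DM. For Pbrm1, G5DM replicate 1 lay closer to G3DM and replicates 2 and 3 closer to G1DM. For Ckap5, G5DM replicate 1 lay between the G3DM and the G1DM libraries, and replicates 2 and 3 lay above both G1DM libraries.

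The p53 pathway gave no called gene in the fit over 15 libraries. The targeted genes came first. Wrn measured 0.387 and 0.425 FPKM in G1DM and 0.0824 and 0.0886 in G3DM, below the limit for testing, and Terc was listed at 0 in all 4 libraries. Trp53, which encodes p53, measured 34.3 and 38.6 FPKM in G1DM and 51.4 in both G3DM libraries (log2 0.49, 95% interval -0.26 to 1.24, adjusted p = 0.405). Cdkn1a, which encodes p21, measured 111 and 116 FPKM and then 168 and 180. Both genes lay higher in generation 3 without overlap, as did 39.4% of all genes, and neither passed the test. For Cdkn1a the difference was log2 0.61 (95% interval -0.54 to 1.77, adjusted p = 0.486). Mdm2 went the other way with overlapping groups (25.1 and 42.6 FPKM, then 16.4 and 27.1; log2 -0.61, 95% interval -1.57 to 0.35). Ccng1, a cyclin induced by p53, measured 142 and 204 FPKM and then 80.9 and 123 (log2 -0.77, adjusted p = 0.236).

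Over 3 lists of p53-activated genes, 48 of 51 members were tested and none was called by limma, with 5 higher and 6 lower at an unadjusted p under 0.05, beside 8.47% and 13.4% of all genes. Of these 48, 16 lay higher and 11 lower without overlap, beside 39.4% and 25.6% of all genes, and the median log2 was 0.13 beside 0.12. With the 4 libraries only, 2 of 19 feedback and arrest genes and 1 of 14 metabolism and repair genes were called lower. None of the 3 lists had a higher call there, beside 1.28% of all genes higher and 5.16% lower. Without G5DM replicate 1, 2 feedback and arrest genes were called lower and 2 of 15 apoptosis genes higher. In metabolism and repair 1 was higher and 1 lower in that fit, beside 2.99% and 9.59% of all genes. The member of smallest p in the list of feedback and arrest genes was Trp53inp1, a p53 cofactor, which measured 17.7 and 10.4 FPKM and then 1.66 and 3.94 (log2 -2.01, adjusted p = 0.081). Among apoptosis genes it was Trp53i11 (3.05 and 2.76 FPKM, then 4.76 and 4.34), and among genes of metabolism and repair the translesion polymerase Polk (5.19 and 8.00, then 1.81 and 2.48). The GC content was 38.8% for Trp53inp1, 56.5% for Trp53i11 and 41.6% for Polk, beside a median of 50.0% over all genes tested. The p16 and Arf locus Cdkn2a measured 44.5 and 38.8 FPKM and then 51.6 and 76.6 (adjusted p = 0.601). Of 35 tested senescence and secretory genes, none was called, and 16 were higher and 3 lower without overlap, beside 39.4% and 25.6% of all genes. Their median was 0.46, and 0.19 once the trends on GC and on length were removed. The one of smallest p, the matrix protease gene Mmp10, measured 0.0248 and 1.60 FPKM and then 3.45 and 9.47 (adjusted p = 0.073).

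Genes of cell division, DNA replication and telomeres gave no call either in the fit over 15 libraries. Mybl2, the B-Myb subunit of MMB, measured 2.12 and 5.21 FPKM in G1DM and 4.17 and 2.87 in G3DM, and Foxm1, its partner at G2/M promoters, 9.36 and 16.8 and then 14.5 and 11.8. Both overlapped, with log2 differences of 0.02 and 0.05. The 14 DREAM and MMB subunits had a median of 0.00, the 56 G1/S genes 0.19 and the 58 G2/M genes -0.05. In the G2/M list 4 genes were higher and 20 lower without overlap, beside 39.4% and 25.6% of all genes. Top2a, the topoisomerase of mitotic chromosomes, measured 13.3 and 23.6 FPKM and then 6.26 and 6.34 (adjusted p = 0.083). At an unadjusted p under 0.05, 15 of the 58 were lower, beside 13.4% of all genes. Without G5DM replicate 1, 11 of the 58 G2/M genes, 7 of 23 checkpoint and end joining genes and 3 of 56 G1/S genes were called lower and none higher, beside 9.59% of all genes lower. With the 4 libraries only, 2, 3 and 1 of them were called lower, beside 5.16% of all genes. The 25 shelterin, CST and telomerase genes had a median of 0.06, with 5 higher and 5 lower without overlap, beside the same shares of all genes. Terf1, the shelterin subunit TRF1, measured 1.27 and 2.07 FPKM and then 0.419 and 0.461 (adjusted p = 0.156). In homologous recombination the gene of smallest p was Rbbp8 (CtIP, which starts resection of breaks), with 3.58 and 6.78 FPKM and then 1.16 and 1.73, and among checkpoint and end joining genes Nbn (a subunit of the MRN complex), with 6.68 and 10.0 and then 2.00 and 2.45. Their lists had medians of -0.09 (23 genes) and -0.01 (23 genes). Top2a, Terf1 and Rbbp8 have a GC content of 43.4%, 36.5% and 42.1%, beside a median of 50.0% over all genes tested. Once the trends on GC and on length were removed, the G2/M median was -0.12 and that of shelterin, CST and telomerase -0.04. Homologous recombination then had -0.003 and checkpoint and end joining -0.05, beside 0.04 over all genes.

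**Figure D3:**
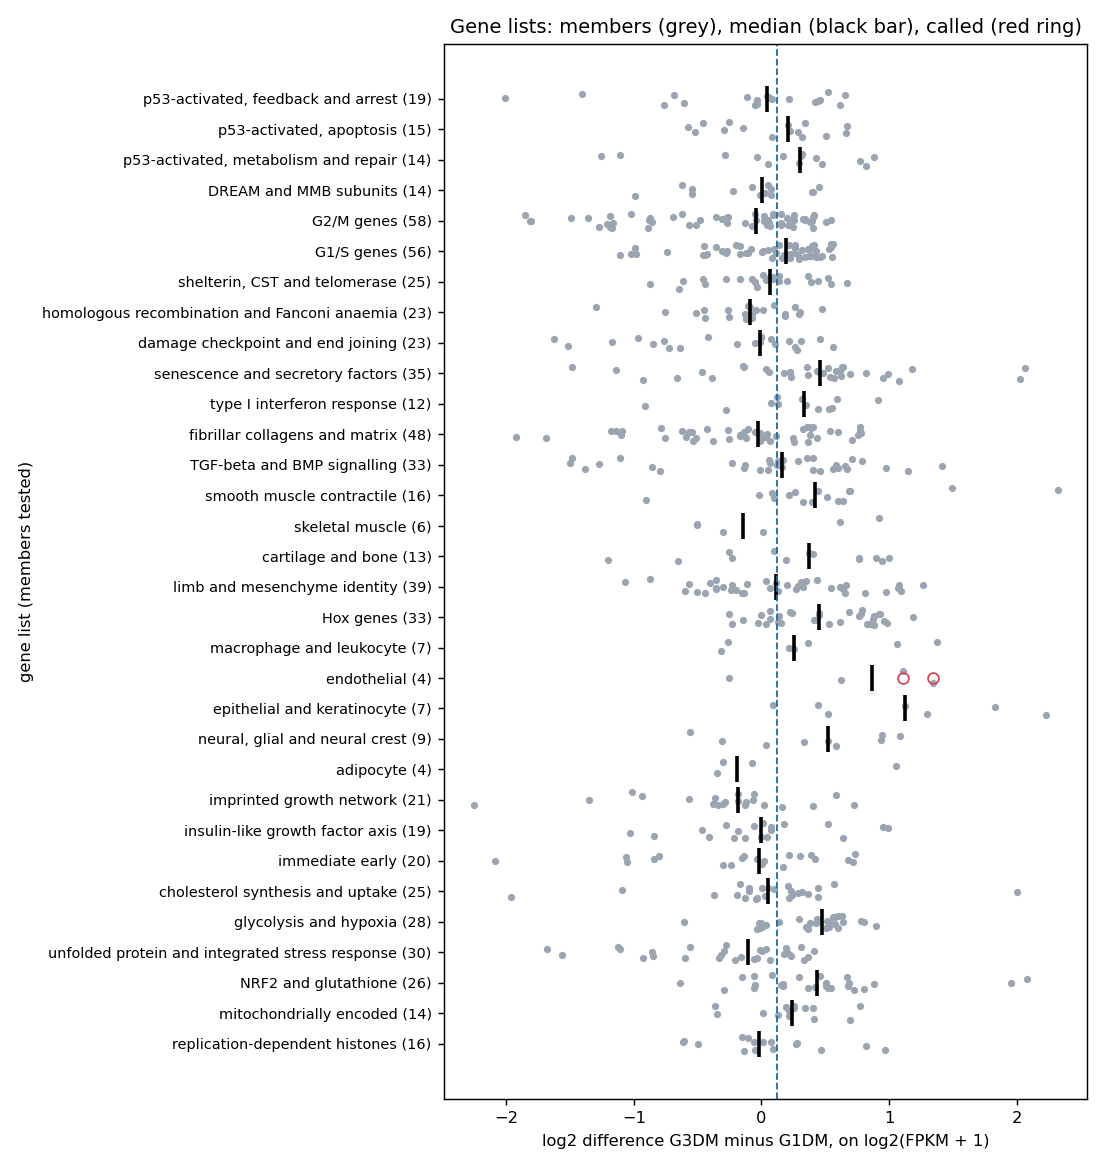
Log2 difference G3DM minus G1DM of each tested member (grey points) of the gene lists, with the list median as a black bar, called members ringed in red and the median over all genes as a dashed line. Cdh5 and Esam in the endothelial list carry the only rings, and the list medians run from -0.19 to 1.13.

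Several lists sat above or below the median of all genes with no called member. Their counts without overlap stand beside 39.4% of all genes higher and 25.6% lower. Of 33 tested Hox genes, which set the position of cells along the body, 19 were higher and 3 lower without overlap, with a median of 0.45. Hoxc10 measured 6.70 and 4.28 FPKM and then 10.1 and 12.8, and 0.0290 to 0.847 in G5DM. Glycolysis and hypoxia genes (28 tested, 14 higher, 1 lower, median 0.47) and targets of the antioxidant factor NRF2 with glutathione genes (26 tested, 13 higher, 1 lower, median 0.44) were similar. Gpx3, a secreted glutathione peroxidase, measured 34.5 and 15.6 FPKM and then 103 and 100.3 (adjusted p = 0.071). Genes of the unfolded protein and integrated stress response lay lower (30 tested, 3 higher, 12 lower, median -0.11), and the chaperone gene Hsp90b1 measured 127 and 193 FPKM and then 47.0 and 49.7 (adjusted p = 0.073). After rescaling to a common FPKM sum the Hox median was 0.31, glycolysis 0.27, NRF2 0.22 and the stress response -0.35, beside -0.08 over all genes. Once the trends on GC and on length were removed, the medians were 0.27, 0.27, 0.20 and -0.34 in the same order, beside 0.04.

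The difference between the generations followed the base composition of the genes. In the quintile of genes with the least GC (18.1 to 44.2%, 2390 genes) the median log2 difference was -0.55, and in the quintile with the most (55.6 to 86.2%, 2389 genes) it was 0.40. Without overlap, 1628 genes were lower and 189 higher in the first of these, and 86 lower and 1573 higher in the last. Between the replicates of a group the same medians ran only from -0.20 to 0.10 in G1DM and from -0.12 to 0.13 in G3DM. By gene length the median went from 0.26 in the shortest quintile to -0.15 in the longest. G5DM replicate 1 deviated from the mean of the 7 DM libraries as G3DM did (-0.23 in the quintile of least GC, 0.27 in that of most GC), while replicates 2 and 3 deviated the other way (0.29 and 0.35, then -0.23 and -0.29). The called higher genes had a median GC content of 53.1% and the called lower genes of 44.0%, beside 50.0% over all genes tested.

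**Figure D4:**
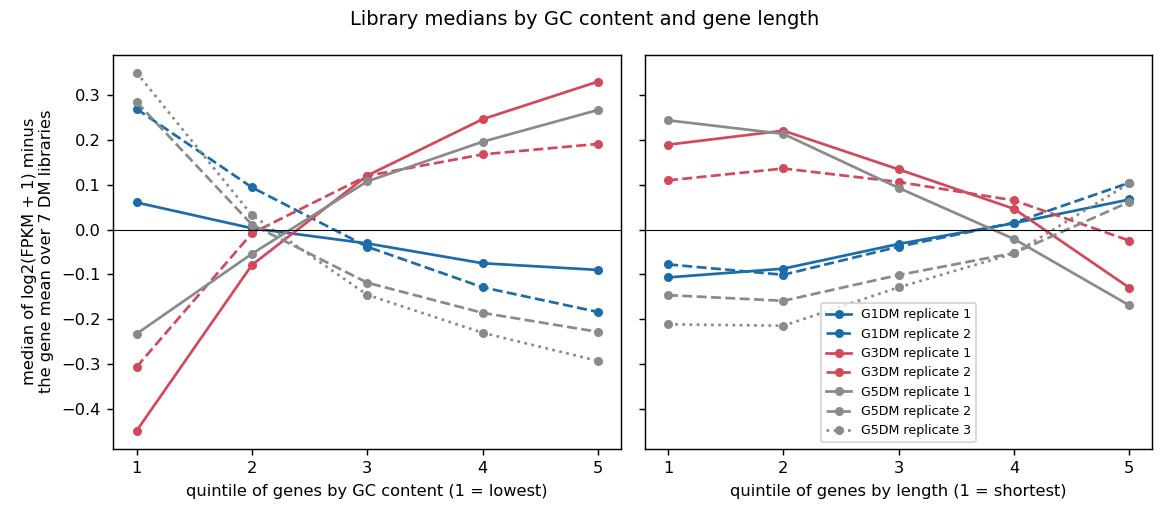
Median deviation of log2(FPKM + 1) from the gene's mean over the 7 DM libraries, by quintiles of GC content (left) and gene length (right), 1 line per library. The 2 G3DM lines and G5DM replicate 1 rise with GC and the 2 G1DM lines and G5DM replicates 2 and 3 fall, crossing between the second and the third quintile.

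In an alternative chosen after seeing the data, the trend on GC content and length was subtracted from each library. Then 32 genes were called (19 or 0.159% higher and 13 or 0.109% lower), and 11 of the 31 higher and 4 of the 7 lower genes were among them. Cck (log2 3.55, adjusted p = 0.034), Upk1b (2.08), Abcg1 (1.91), Lgr6 (1.78), Frzb (1.49), Ptges (1.22), S100a1 (1.16) and Ahr (-1.56) stayed called. Mcpt8 (2.01), Podxl (1.71), Gzme (1.58), Smpd3 (1.24), Loxl3 (1.10), Esam (1.00) and Cdh5 (0.87) did not pass, with adjusted p of 0.0543 to 0.101. Among the falls, Itga8 (-0.76), Lgalsl (-0.71) and Eprs (-0.34, adjusted p = 0.493) did not pass, and their differences shrank by more than 1.5 times. What set the trend was not tested.

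Values in generation 5 and in TM cells are given beside these, since they share the G1DM libraries or the fit. The G5DM minus G3DM difference was called for 709 genes (5.93%), of which 247 (2.07%) were lower and 462 (3.86%) higher in G5DM. The leading genes were chosen for their G3DM values, which this contrast and the interaction use again, so that a lower value in G5DM or TM for a rise, and a higher one for a fall, is favoured by the choice. Their values are therefore a description. Cck went from 96.8 and 276 FPKM in G3DM to 15.3, 15.7 and 15.0 in G5DM (log2 -3.33, adjusted p = 0.0021). Itga8 went from 2.55 and 3.08 FPKM to 9.29, 10.0 and 10.1 (log2 1.50, adjusted p = 0.0023). Abcg1 (5.23, 6.21 and 8.95 FPKM in G5DM) and Ahr did not pass. The interaction of generation 3 with p53 genotype was called for 301 genes (2.52%), lower in 1.02% of all genes. The rise of Cck between generations 1 and 3 differed between TM and DM (log2 -3.83, adjusted p = 0.0067), but G3TM is among the 6 libraries that stand apart, so genotype and that division cannot be told apart there.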

How the data were processed

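RNA of 15 mouse fibroblast libraries was analysed, with groups and replicate numbers taken from the sample titles. Per the submitters' processing notes, the tools were HISAT2 2.0.5, fastp, CASAVA 1.8, DESeq2 1.20.0 and featureCounts 1.5.0-p3, with no role stated. A genome build is not given in the sources used here. For 98.2% of genes the listed coordinates were those in GENCODE vM21 (GRCm38). The authors deposited FPKM for 54495 genes. FPKM times gene length was a whole multiple of 1 step per library (tolerance 0.05) for 100% of values above 0, which gave back read numbers (17448588 to 29571111 per library). These set the depth only, and no count model was run.

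Genes with at least 1 FPKM in at least 2 of the 4 G1DM and G3DM libraries were tested on log2(FPKM + 1), with a pseudocount of 1. limma 3.58.1 (R 4.3.3) fitted 6 group means over 15 libraries, using moderated variances with a trend on intensity, two-sided tests and Benjamini-Hochberg adjustment over 11955 genes. Intervals are 95%. An exact permutation test of 2 against 2 libraries cannot go below p = 0.333 and was not used. On simulated data for this comparison with 11955 genes the fit recovered 26 of 100 changes of 1 log2 unit and 94 of 100 of 2 log2 units, with 6 false calls. The changes were placed only in genes of higher mean expression, so the recovery rates do not cover genes of low FPKM. The simulated noise was independent between genes, so these rates may not hold for these libraries. Python 3.11.15 with pandas 2.3.3, numpy 2.4.6 and matplotlib 3.10.9 made tables and plots.

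Named genes were Wrn, Terc, Trp53, Cdkn1a, Mdm2, Ccng1, Cdkn2a, Mybl2 and Foxm1. Then came called genes that code for protein, do not overlap between the groups and reach a mean of 5 FPKM in either, the top 12 by size in each direction, filled up with the uncalled genes of smallest p, and up to 3 called members or the member of smallest p of each list. Not every list member of smallest p is printed in the text. The other called genes, and the members of the lists written later, were named after their values were seen. The 34 lists held 914 genes, of which 909 were in the table. The comparison, its genes and the lists were chosen with earlier results of these data known. Alternatives were 1 other pseudocount, 3 other filters, 2 other scalings, 2 smaller sets of libraries, no intensity trend, a replicate block, leaving out each library, leaving out X and Y genes, and 2 chosen after seeing the data. Wild-type and p53-mutant control fibroblasts named in the design text are not analysed here.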

Additional observations from a re-analysis of the deposited data

Results flagged for a closer look

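For the 18 called genes named by the rule, the contrast G5DM minus G3DM tests whether generation 5 and generation 3 differ from generation 1 by different amounts, since both share the G1DM libraries. These genes were called on the same G3DM libraries that this contrast uses again, so the choice of genes favours a difference of opposite sign, and the values below describe these libraries and support nothing further. The contrast passed (limma, adjusted p under 0.05) for 13 genes that were higher in G3DM and lay lower in G5DM than in G3DM. The log2 differences were -3.33 for Cck, -2.50 for Podxl, -2.32 for Gzme, -1.89 for Upk1b, -1.87 for Smpd3, -1.72 for Esam, -1.72 for Lgr6, -1.63 for Mcpt8, -1.52 for Loxl3, -1.27 for S100a1, -1.26 for Frzb, -1.19 for Ptges and -0.94 for Cdh5. Among the falls, it passed in the opposite direction for Itga8 (1.50), Lgalsl (0.96) and Eprs (0.88). All 3 G5DM libraries, replicate 1 included, lay on the G1DM side of both G3DM libraries in each of these 16 genes.

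The generation difference itself differed between TM and DM cells (interaction, limma, adjusted p under 0.05) for 6 of these genes. The interaction contains the G3DM minus G1DM difference on which the genes were called, so a smaller or opposite difference in TM, as all 6 had, is favoured by the choice. The interactions were -3.83 for Cck, -2.45 for Gzme, -2.32 for Mcpt8, -2.28 for Frzb, -1.68 for Abcg1 and -1.64 for Loxl3 on the log2 scale. The G3TM libraries stand apart from G1TM, G1DM and G3DM in genes such as Rpl12 (300 to 569 FPKM against 4.24 to 6.77), so the genotype and that division cannot be told apart in these values.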

How the results depend on the processing

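The 38 called genes kept their direction wherever they were tested, 19 of them under all 28 alternatives and 19 under 27, since the filter on a mean of 5 FPKM leaves those out. Most of these alternatives leave the log2 estimate of a gene unchanged, so its direction was fixed in advance there. The number of calls moved widely. It was 3 with a pseudocount of 0.1 (Cck, Abcg1 and Gm3226), 134 with no filter on low values, 13 with a mean of at least 5 FPKM, 235 with quantile normalization, 7 with a common FPKM sum, 770 with the 4 libraries only, 0 with the 7 DM libraries only, and 2 without the 6 G3TM and G5TM libraries (Inmt and Gm3226). The last of these was chosen after seeing the data. With 29 to 46 calls, the filter over 15 libraries, no intensity trend, no X and Y genes, and the GC and length correction stayed within 1.5 times of 38. The share of calls that were higher was 81.6% in the reported fit, 54.0% after quantile normalization and 59.4% after the GC and length correction. This share was 43.3% with no filter on low values, 19.9% with the 4 libraries only, 23.8% without G5DM replicate 1 and 49.0% without G3TM replicate 1. Leaving out 1 library gave 2 to 1504 calls. It gave 2 and 5 without G1DM replicates 1 and 2, 4 and 3 without G3DM replicates 1 and 2, 8 and 19 without G1TM replicates 1 and 2, 102, 21 and 25 without G3TM replicates 1, 2 and 3, 1504, 28 and 67 without G5DM replicates 1, 2 and 3, and 27, 29 and 18 without G5TM replicates 1, 2 and 3. Called members of the gene lists numbered 2 (Cdh5 and Esam) of 698 tested, or 0.287% beside 0.318% of all genes. They were 0 with a pseudocount of 0.1, a mean of at least 5 FPKM, a common FPKM sum, the 7 DM libraries only, without the 6 G3TM and G5TM libraries or after the GC and length correction. They were 13 with quantile normalization and 39 with the 4 libraries only, beside 235 and 770 of all 11955 genes. When 1 library was left out they were 0 to 76, beside 2 to 1504 of all 11955 genes. G5DM against G3DM gave 709 calls, 1121 with quantile normalization and 21 to 2680 without 1 library, and the interaction gave 301 and 54 to 976. Over the named genes, 1464 single values stayed on their side of the threshold with their direction, 221 no longer passed, 87 newly passed and none changed direction after being called. At this depth 1 read in a gene of 1 kilobase equalled 0.0426 to 0.0521 FPKM in the 4 libraries compared. Near 1 FPKM, short genes therefore rest on fewer reads than long ones, which limits the genes near that level. The causes of these shifts were not tested.

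With the replicate number as a block, 8 genes were called (Cck, Inmt, Abcg1, Ang2, Mcpt8, Gzme, Gm3226 and Gm23318), no list member (0), 116 for G5DM against G3DM and 127 for the interaction. Over 11955 genes the deviations of replicates 1 and 2 correlated at r = 0.155 between G1DM and G3DM. With only 2 such pairs and no label that ties the numbers, the samples share only a number.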
